A study of Mus musculus with 6 samples.

Results

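The miR-17 to 92a cluster is a run of 6 miRNA hairpins cut from a single primary transcript, Mir17hg. Its 7 mature products examined here, taken by name, are mmu-miR-17-5p, mmu-miR-17-3p, mmu-miR-18a-5p, mmu-miR-19a-3p, mmu-miR-20a-5p, mmu-miR-19b-3p and mmu-miR-92a-3p, written below without the prefix for mouse. All 7 were present among the 1065 names of the deposited table. They were measured by sequencing in C2C12 cells, an established mouse skeletal myoblast line. There were 3 libraries from cells given TGF-beta and 3 from cells labelled control, in a study of miRNAs in muscle fibrosis. The labels name no TGF-beta isoform, dose, duration or vehicle. Nor do they say whether libraries of a group came from separate cultures, so p-values reflect only how these libraries vary, which may be technical variation.

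As background, the cluster is best known for promoting proliferation. MYC and E2F factors drive its transcription, it is amplified in human lymphomas, and its loss in mice is lethal around birth. Its products fall into seed families, groups that share the bases 2 to 8 through which a miRNA pairs with its targets. miR-17-5p and miR-20a-5p are known to repress the TGF-beta type II receptor and the cell cycle inhibitor p21 in human cells. miR-92a-3p is known as a repressor of angiogenesis.

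The mature sequences below, written 5′ to 3′ with the seed in capitals, show which members share a seed and which are nearly identical. They were taken from RefSeq on build GRCm38.p6.
miR-17-5p: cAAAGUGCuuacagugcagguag
miR-20a-5p: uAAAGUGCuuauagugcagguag
miR-18a-5p: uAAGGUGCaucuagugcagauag
miR-19a-3p: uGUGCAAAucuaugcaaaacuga
miR-19b-3p: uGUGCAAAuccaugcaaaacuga
miR-92a-3p: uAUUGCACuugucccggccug
miR-17-3p: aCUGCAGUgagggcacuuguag

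Counting positions from the 5′ end, miR-20a-5p differs from miR-17-5p by C1U and C12U, both outside the seed. miR-19b-3p differs from miR-19a-3p by U11C alone. The miR-18a-5p sequence carries A4G relative to miR-17-5p, which gives it a seed of its own. The members are 21 to 23 bases long. How reads that match several names were assigned is not given in the sources used here, so the split between such near-identical names is uncertain.

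On GRCm38.p6 the 6 hairpins lie on the plus strand of chromosome 14, from 115043671 to 115044506, a span of 836 bases with gaps of 35 to 96 bases between neighbours. Their order is Mir17, Mir18, Mir19a, Mir20a, Mir19b-1 and Mir92-1. All 6 lie within exon 2 of the noncoding transcript Mir17hg-201 in GENCODE M21. The submitters' processing notes name mm9, an older build, and the table itself holds no coordinates. The mature sequences of miR-19b-3p and miR-92a-3p are also made from Mir19b-2 and Mir92-2 on the X chromosome, so their reads cannot be assigned to a single locus. miR-363-3p, another product of that X-linked cluster, had 2, 1 and 1 reads in TGF-beta libraries and 0, 3 and 0 reads in control libraries. The remaining arms of the X-linked cluster were not analysed here.

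Levels are given in RPM, reads per 1000000 reads counted over all names in a library. The counts of all names summed to 9015669 to 9813063 reads in a library, so 1 read is worth 0.102 to 0.111 RPM. Some names had equal means in both groups, as miR-467a-3p and miR-467d-3p did. A read may therefore be counted under several names. Being shares of a bulk library, levels in RPM cannot tell a change in RNA per cell from a change in the number of cells that make it. All 5 muscle marker miRNAs were present, with a summed level of 101338 to 102533 RPM in TGF-beta and 134804 to 154422 RPM in control libraries, and 3 of them fell, against 3.83% of all tested names. Blood markers summed to 2.01 to 4.88 RPM in TGF-beta and 1.94 to 2.55 RPM in control libraries. The labels' extraction text mentions retinas. Of 7 retina-linked names, 6 were listed, among them miR-9-5p and miR-182-5p, with a sum of 6368 to 8600 RPM in TGF-beta and 7637 to 8661 RPM in control libraries. miR-204-5p, a defining miRNA of retinal pigment epithelium, was at 0 in all 3 TGF-beta libraries and at 0.216 to 0.427 RPM in control libraries. Endothelial markers summed to 12.9 to 15.2 RPM in TGF-beta and 12.8 to 25.02 RPM in control libraries, and epithelial ones to 1.07 to 2.66 RPM in TGF-beta and 1.32 to 3.41 RPM in control libraries. What part these markers have in the results was not tested.

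Members of the cluster spanned a wide range of levels although they come from a shared transcript. miR-92a-3p had 1339, 1446 and 1309 RPM in TGF-beta libraries, against 883, 757 and 682 RPM in control libraries. miR-20a-5p had 493.3, 493.1 and 275 RPM in TGF-beta libraries, against 289.8, 262 and 239.9 RPM in control libraries. miR-17-5p had 185, 171 and 116 RPM in TGF-beta libraries, against 113, 99.6 and 92.1 RPM in control libraries. All TGF-beta values of miR-92a-3p and miR-17-5p lay above all control values, by a narrow margin for miR-17-5p, while the third TGF-beta value of miR-20a-5p lay inside the control range.

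miR-19b-3p was an order of magnitude lower, with 21.8, 20.95 and 17.9 RPM in TGF-beta libraries and 21.5, 17.1 and 14.1 RPM in control libraries. miR-18a-5p had 5.48, 9.84 and 5.66 RPM in TGF-beta libraries and 4.59, 5.50 and 4.91 RPM in control libraries. The groups overlapped for miR-19b-3p and miR-18a-5p, and the second TGF-beta library stood apart for miR-18a-5p. miR-17-3p, the opposite arm of the miR-17 hairpin, had 2.47, 3.81 and 4.55 RPM in TGF-beta libraries and 3.67, 3.34 and 3.84 RPM in control libraries. miR-19a-3p had 1.18, 2.54 and 2.66 RPM in TGF-beta libraries and 4.08, 2.91 and 2.67 RPM in control libraries. The highest TGF-beta value of miR-19a-3p lay just under the lowest control value. In reads, these values of miR-19a-3p are 11, 24 and 24 against 40, 27 and 25. The exact Poisson 95% interval of the lowest was 5.49 to 19.7 reads. It overlapped those of 24 reads (15.4 to 35.7), 25 reads (16.2 to 36.9) and 27 reads (17.8 to 39.3), but not that of 40 reads (28.6 to 54.5). Such intervals cover counting error only.

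The order of levels was miR-92a-3p, miR-20a-5p, miR-17-5p, miR-19b-3p and miR-18a-5p from high to low in each group, with no overlap between neighbours. Below these, miR-17-3p and miR-19a-3p overlapped in both groups. By mean level, miR-92a-3p ranked 57 and miR-19a-3p ranked 328 of all names. Together the members had 2048, 2147 and 1731 RPM in TGF-beta libraries, against 1320, 1148 and 1040 RPM in control libraries, with no overlap. In TGF-beta libraries miR-92a-3p made up 69.4% ± 5.43 of the members' reads, miR-20a-5p 20.98% ± 4.44 and miR-17-5p 7.90% ± 1.16 (SD, n = 3). The same shares in control libraries were 66.2% ± 0.674, 22.6% ± 0.588 and 8.69% ± 0.1496 (SD, n = 3), so the composition was more even among control libraries.

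**Figure D1:**
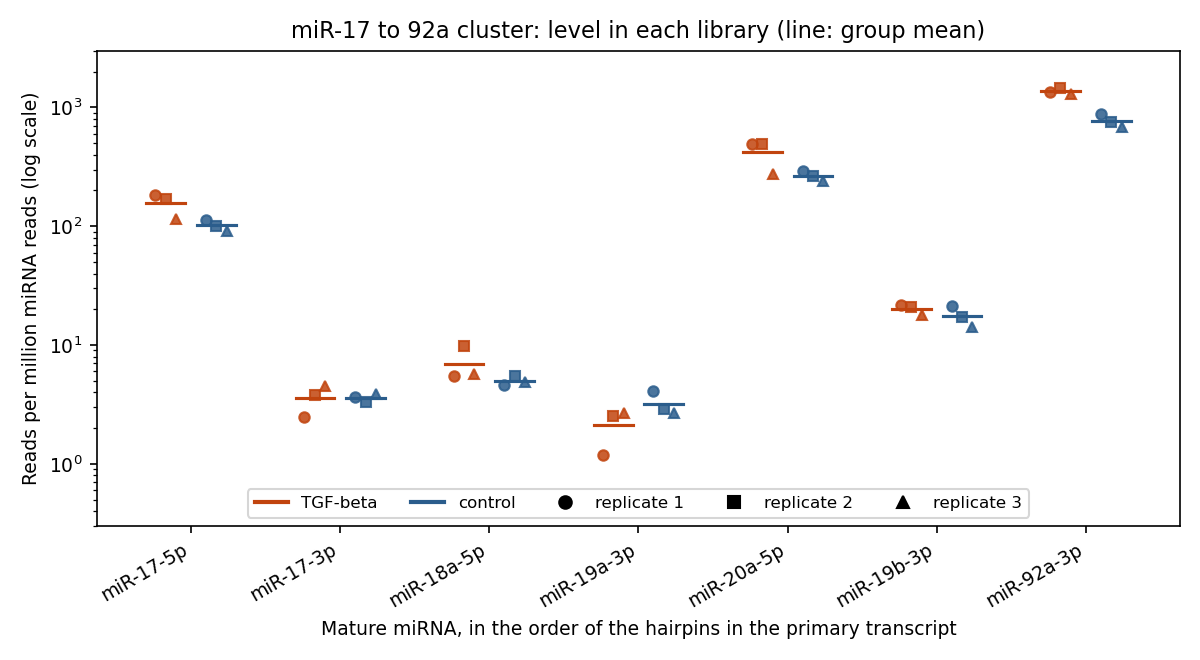
Level of each cluster member in RPM on a log axis, in the order of the hairpins along the transcript; points are libraries (TGF-beta left, control right, symbols for replicate numbers) and lines are group means. miR-92a-3p lies at 682 to 1446 RPM and miR-19a-3p at 1.18 to 4.08 RPM, and TGF-beta replicate 3 is lowest of its group for miR-17-5p and miR-20a-5p.

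Given TGF-beta, 3 of the 7 members rose: miR-92a-3p, miR-20a-5p and miR-17-5p, the 3 most abundant. None fell, and 4 did not pass the test. miR-92a-3p averaged 1365 ± 72.0 RPM in TGF-beta and 774 ± 101.5 RPM in control libraries (SD, n = 3 each), a ratio of means of 1.76. miR-20a-5p averaged 421 ± 126 RPM in TGF-beta and 264 ± 24.998 RPM in control libraries, and miR-17-5p 157 ± 36.3 RPM in TGF-beta and 102 ± 10.6 RPM in control libraries (SD, n = 3 each).

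The test was limma with an intensity trend on log2(RPM + 1), a scale that understates the change of low names, over the 418 names that reached 1 RPM in 3 or more libraries. Calls were made at 0.05 on two-sided p-values adjusted by Benjamini-Hochberg. All 7 members passed this filter on the control libraries alone. The log2 fold change was 0.82 for miR-92a-3p (SE 0.13, limma adjusted p = 0.000479), 0.62 for miR-20a-5p (SE 0.18, adjusted p = 0.0443) and 0.60 for miR-17-5p (SE 0.17, adjusted p = 0.0364). Over all tested names 7.89% were called, 4.07% as higher and 3.83% as lower. The median log2 fold change was 0.37 over the members and −0.05 over all tested names. Groups did not overlap for 3 of 7 members, against 21.3% of all tested names, and TGF-beta was the higher group for 2 of these members, against 9.09% of all tested names.

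The other members had log2 fold changes of 0.37 for miR-18a-5p (SE 0.21, 95% interval −0.07 to 0.82), 0.21 for miR-19b-3p (SE 0.17, −0.16 to 0.57), −0.03 for miR-17-3p (SE 0.22, −0.49 to 0.43) and −0.45 for miR-19a-3p (SE 0.25, −0.98 to 0.07). The interval of miR-18a-5p holds the change of miR-17-5p, and that of miR-19b-3p ends just below it.

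The call of miR-92a-3p held in all 17 alternatives tried, with log2 fold changes from 0.74 to 0.99. Those of miR-17-5p and miR-20a-5p each ended in 8 of 17. Without TGF-beta replicate 1, 2 or control replicate 3, limma gave miR-20a-5p an adjusted p of 0.162, 0.326 and 0.113 and miR-17-5p one of 0.126, 0.241 and 0.115. The call of miR-20a-5p also ended without control replicate 1 (limma adjusted p = 0.0617), and that of miR-17-5p without control replicate 2 (limma adjusted p = 0.0575).

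Leaving out TGF-beta replicate 3 narrowed the error of these members. That library was the lowest of its group for each of them, so leaving it out had to raise their fold changes. The values without it therefore add no support for the calls. Without it, the log2 fold change was 0.90 for miR-20a-5p (SE 0.10, limma adjusted p = 0.000507), 0.81 for miR-17-5p (SE 0.11, limma adjusted p = 0.00130) and 0.85 for miR-92a-3p (SE 0.11, limma adjusted p = 0.00118). This library also held the least miR-93-5p and miR-106b-5p of any library, names from another transcript with the seed of miR-17-5p. It had the lowest mean correlation of log values to its group across miRNAs, 0.994, against 0.995 to 0.997 for the other libraries.

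Opposite arms of the same hairpins were rare in both groups. miR-92a-1-5p, which unlike miR-92a-3p is made from the chromosome 14 hairpin alone, had 11, 24 and 11 reads in TGF-beta libraries, against 4, 2 and 5 reads in control libraries. All 3 TGF-beta counts lay above all control counts. It entered the test only through its TGF-beta libraries, and its log2 fold change was 0.90 (SE 0.29, limma adjusted p = 0.0665). On the recovered reads of the same filtered names, edgeR's quasi-likelihood fit gave 2.12 with an adjusted p of 0.0338. The name passed in 4 of 16 alternatives, so the call depends on the setting. As limma and edgeR both used this filter, neither p-value is read as support for a rise, nor is the count of alternatives. Its sequence, shown because it marks the locus, is
miR-92a-1-5p: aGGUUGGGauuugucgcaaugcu

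miR-20a-3p had 6, 9 and 2 reads in TGF-beta libraries and 3, 2 and 1 reads in control libraries, and was not tested. miR-18a-3p had 14, 21 and 17 reads in TGF-beta libraries and 15, 20 and 11 reads in control libraries. Its log2 fold change, TGF-beta over control, was 0.14 with an SE of 0.25, and its log2 ratio to miR-18a-5p by −0.23 (SE 0.36). limma adjusted p was 0.617 for that ratio with miR-18a-5p as denominator, where 2.16% of names were called, and 0.815 with miR-18a-3p as denominator, where 1.20% were called. miR-19b-1-5p had at most 3 reads and miR-19a-5p at most 2 in any library. Of these 5 other arms, 2 were tested and none passed the main limma test.

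**Figure D2:**
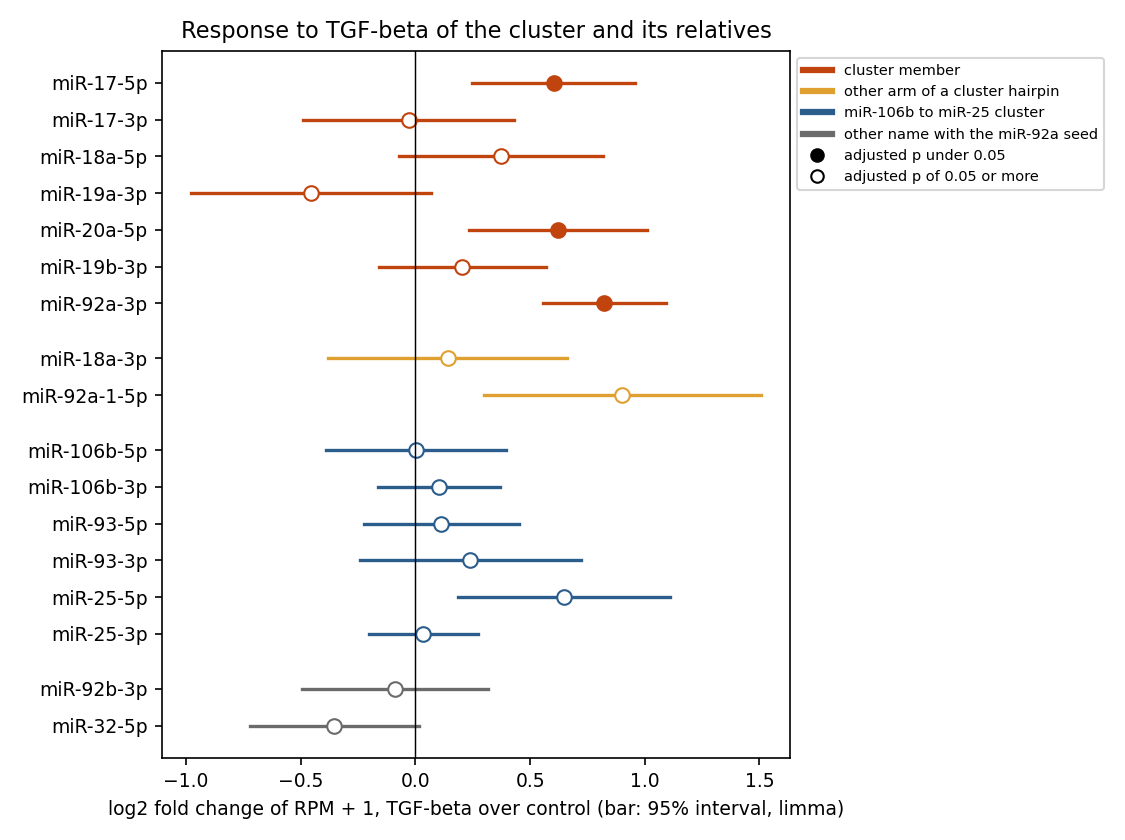
log2 fold change of RPM + 1, TGF-beta over control, with 95% intervals from limma, for the tested cluster members, the other arms of their hairpins, the miR-106b to miR-25 cluster and further names with the miR-92a seed; filled points have an adjusted p under 0.05. The 3 filled points are miR-17-5p, miR-20a-5p and miR-92a-3p, at 0.60, 0.62 and 0.82. Of the names shown, miR-92a-1-5p entered the test only through its TGF-beta libraries.

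Members were next set against each other inside each library, where the scaling of the library cancels. miR-19a-3p, miR-19b-3p and miR-17-3p were lower relative to miR-92a-3p in all 3 TGF-beta libraries than in any control library. Over all names, however, 85.1% of ratios to miR-92a-3p had groups that did not overlap. Nothing about these members is therefore read from their lack of overlap. For each read of miR-92a-3p there were 0.0163, 0.0145 and 0.0136 reads of miR-19b-3p in TGF-beta libraries, against 0.0243, 0.0226 and 0.0206 in control libraries. The same ratio for miR-19a-3p was 0.000882, 0.00176 and 0.00203 in TGF-beta libraries, against 0.00461, 0.00384 and 0.00391 in control libraries. For miR-17-3p it was 0.00184, 0.00263 and 0.00347 in TGF-beta libraries, against 0.00415, 0.00441 and 0.00563 in control libraries.

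The log2 ratio to miR-92a-3p, TGF-beta minus control, was −1.28 for miR-19a-3p (SE 0.28), −0.85 for miR-17-3p (SE 0.26) and −0.62 for miR-19b-3p (SE 0.21). limma was fitted to the ratio of every tested name to a given member, with adjustment over 417 names. The adjusted p was 1.64e-05 for miR-19a-3p, 0.00191 for miR-17-3p and 0.00467 for miR-19b-3p. With miR-92a-3p as denominator, however, 90.2% of all names were called, so these 3 of 6 calls are no result about the members. With the denominators exchanged limma gave adjusted p = 0.0274, 0.209 and 0.139 for the same pairs, where 1.92%, 0.00% and 1.92% of names were called. The exact permutation p was 0.1 for each of the 3 pairs, the smallest that 3 against 3 libraries allow.

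Of all 21 pairs of members, 5 passed with at least 1 of the denominators. Counting each denominator on its own, 6 of 42 tests between members passed (14.3%), against 24.0% of the ratios of all names to the members. The other 2 were miR-17-5p with miR-19a-3p, at 1.06, and miR-19a-3p with miR-20a-5p, at −1.08. The SE of the former was 0.34 with miR-17-5p and 0.37 with miR-19a-3p as denominator. That of the latter was 0.39 with miR-20a-5p as denominator. For miR-17-5p with miR-19a-3p, limma adjusted p was 0.0242 with miR-17-5p as denominator, where 53.5% of names were called. For miR-19a-3p with miR-20a-5p it was 0.0469 with miR-20a-5p as denominator, where 18.7% were called. With miR-19a-3p as denominator, where 1.92% were called, limma adjusted p was 0.0956 for each of these pairs. Both calls ended when any library but TGF-beta replicate 3 was left out, with limma adjusted p from 0.0629 to 0.129 for miR-17-5p and from 0.108 to 0.236 for miR-20a-5p. miR-19a-3p with miR-92a-3p was the pair that passed with either denominator. Its larger limma adjusted p was 0.0163 and 0.0224 when TGF-beta replicate 1 or 3 was left out. It was 0.0758 with log2(RPM + 0.5), 0.130 without TGF-beta replicate 2, and 0.534, 0.308 and 0.186 without control replicate 1, 2 or 3. In 9 of 21 pairs (42.9%) the groups did not overlap, against 37.5% of the ratios of all names to the members.

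miR-17-5p and miR-20a-5p kept nearly the same ratio to each other. There were 0.374, 0.347 and 0.422 reads of miR-17-5p per read of miR-20a-5p in TGF-beta libraries, against 0.390, 0.380 and 0.384 in control libraries. The log2 ratio, TGF-beta minus control, was −0.02 (95% interval −0.58 to 0.54). For miR-20a-5p and miR-92a-3p the control libraries were close to each other, but TGF-beta replicate 3 was not close to its group. There were 0.368, 0.341 and 0.210 reads of miR-20a-5p per read of miR-92a-3p in TGF-beta libraries, against 0.328, 0.346 and 0.352 in control libraries. That log2 ratio differed by −0.20 (95% interval −0.57 to 0.17), and the ratio of miR-17-5p to miR-92a-3p by −0.22 (−0.60 to 0.16).

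**Figure D3:**
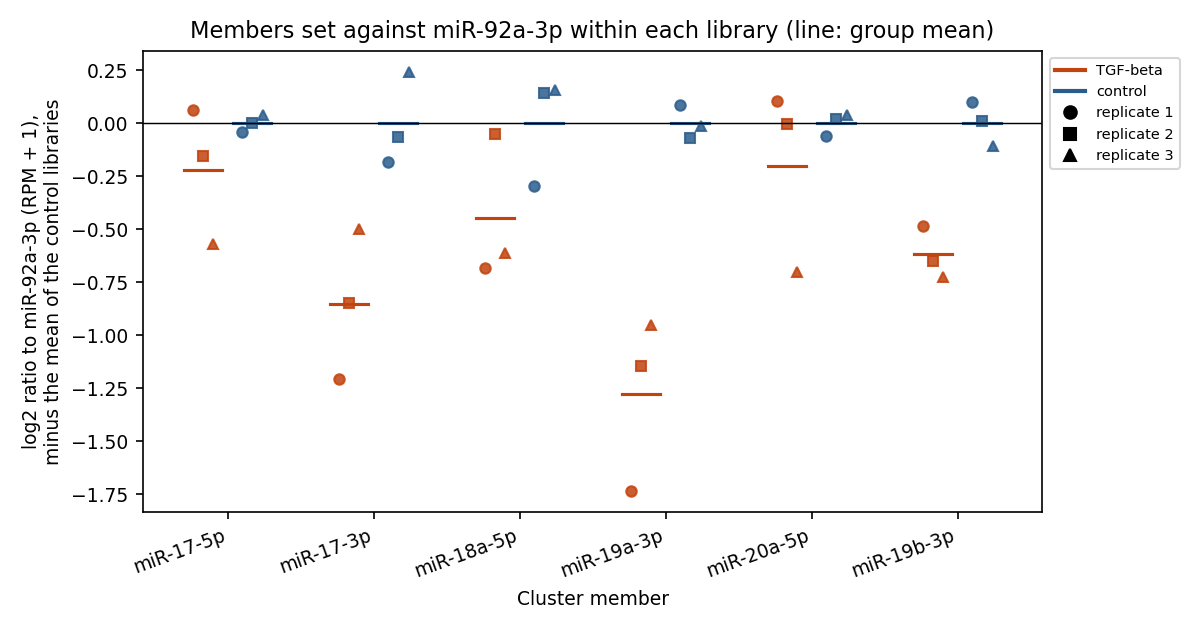
log2 ratio of each other member to miR-92a-3p (RPM + 1 in each), minus the mean of the control libraries; points are libraries (TGF-beta left, control right) and lines are group means. The TGF-beta means of miR-17-3p, miR-19a-3p and miR-19b-3p lie at −0.85, −1.28 and −0.62 with no overlap, while for miR-17-5p, miR-18a-5p and miR-20a-5p the TGF-beta and control libraries overlap. Over all names, 85.1% of ratios to miR-92a-3p had groups that did not overlap.

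Seed relatives from other transcripts were compared with the members, since they would share targets with them. The miR-106b to miR-25 cluster, in an intron of Mcm7, encodes miR-106b-5p and miR-93-5p with the seed of miR-17-5p and miR-25-3p with that of miR-92a-3p. Their sequences show the shared seeds.
miR-93-5p: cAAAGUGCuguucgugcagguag
miR-106b-5p: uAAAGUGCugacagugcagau
miR-25-3p: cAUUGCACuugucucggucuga
miR-92b-3p: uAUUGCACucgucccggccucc
miR-32-5p: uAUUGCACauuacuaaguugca

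None of the 6 tested names of that cluster passed. The log2 fold change, TGF-beta over control, was 0.11 for miR-93-5p (SE 0.16), 0.00 for miR-106b-5p (SE 0.19), 0.04 for miR-25-3p (SE 0.11) and 0.65 for miR-25-5p (SE 0.22). For the opposite arms miR-106b-3p and miR-93-3p it was 0.10 (SE 0.13) and 0.24 (SE 0.23). Groups did not overlap for miR-106b-3p and miR-25-5p, with TGF-beta higher, as for 9.09% of all tested names. miR-25-5p, the opposite arm of miR-25-3p, had the smallest limma adjusted p of these at 0.0909, and passed in 3 of 16 alternatives. miR-92b-3p and miR-32-5p, from hairpins of their own, were at −0.09 (SE 0.19) and −0.35 (SE 0.18). The signs of miR-106b-5p, miR-93-5p, miR-25-3p and miR-92b-3p turned in 4, 1, 1 and 2 alternatives, so no direction is given for them.

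The ratios of miR-92a-3p to its seed relatives were read mainly with the relative as denominator, since against miR-92a-3p itself 90.2% of all names were called and 85.1% had groups that did not overlap. There were 1.93, 1.76 and 1.68 reads of miR-25-3p per read of miR-92a-3p in TGF-beta libraries, against 2.69, 3.25 and 3.38 in control libraries. All TGF-beta ratios lay below all control ratios. The log2 ratio differed by −0.79. With miR-25-3p as denominator, where 5.995% of names were called, limma gave an SE of 0.13 and adjusted p = 0.00163. With miR-92a-3p as denominator limma gave an SE of 0.17 and adjusted p = 1.89e-05. The call held with either denominator in all 10 alternatives run on ratios, with differences between −0.89 and −0.72. The difference was −0.91 for miR-92b-3p (limma adjusted p = 0.00105 with miR-92b-3p as denominator, where 5.04% of names were called) and −1.18 for miR-32-5p (limma adjusted p = 0.00892, where 2.88% were called). The call of miR-92b-3p was lost without control replicate 3 (limma adjusted p = 0.0941). That of miR-32-5p was lost without TGF-beta replicate 1 or 2 or control replicate 2 or 3 (limma adjusted p from 0.0909 to 0.329).

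Between the miR-17-5p seed names, the groups did not overlap in any of 4 comparisons of a cluster member with a relative. Over all names, 54.9% of ratios to miR-17-5p and 42.9% of ratios to miR-20a-5p did not overlap either, and nothing about the relatives is read from this count. There were 2.18, 2.51 and 2.41 reads of miR-93-5p per read of miR-17-5p in TGF-beta libraries, against 3.36, 3.37 and 3.24 in control libraries. For miR-106b-5p per read of miR-20a-5p the values were 0.110, 0.102 and 0.110 in TGF-beta libraries, against 0.138, 0.169 and 0.193 in control libraries. The log2 ratio to miR-17-5p differed by −0.49 for miR-93-5p (SE 0.20) and −0.60 for miR-106b-5p (SE 0.22). limma gave adjusted p = 0.0439 and 0.0338 with miR-17-5p as denominator, where 53.5% of names were called, and 0.416 and 0.518 with the denominators exchanged, where 1.20% and 0.00% of names were called. Against miR-20a-5p the differences were −0.51 for miR-93-5p (SE 0.28, limma adjusted p = 0.115) and −0.62 for miR-106b-5p (SE 0.29, limma adjusted p = 0.0805). Without TGF-beta replicate 3 all 4 comparisons passed with either denominator, with the larger limma adjusted p from 0.00723 to 0.0282. For each comparison this was the only 1 of 10 alternatives in which it passed with either denominator. The share of all names that passed in that setting is not given, so nothing about the relatives is read from it.

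The members' share of the reads with the seeds of miR-17-5p and miR-92a-3p is given by library and was not tested. Reads of miR-92a-3p may also come from the X-linked hairpin. miR-17-5p and miR-20a-5p made up 59.7%, 58.1% and 55.8% of the reads with their seed in TGF-beta libraries, against 48.97%, 48.8% and 49.03% in control libraries. miR-92a-3p made up 33.9%, 35.8% and 36.9% of its seed's reads in TGF-beta libraries, against 26.8%, 23.2% and 22.5% in control libraries. The TGF-beta shares lay above all control shares for both seeds. These shares restate the ratios of members to relatives given above. Over all names, 54.9%, 42.9% and 85.1% of ratios to miR-17-5p, miR-20a-5p and miR-92a-3p had groups that did not overlap. Nothing about the seeds is therefore read from the lack of overlap between shares. In level, the miR-17-5p seed summed to 1135, 1143 and 700.9 RPM in TGF-beta libraries and 822, 742 and 677 RPM in control libraries, so the groups overlapped through TGF-beta replicate 3. The seed of miR-92a-3p summed to 3954, 4035 and 3547 RPM in TGF-beta libraries, against 3296, 3268 and 3039 RPM in control libraries, with no overlap. The miR-19 seed, carried by miR-19a-3p and miR-19b-3p alone among the listed names with a sequence, summed to 22.98, 23.5 and 20.5 RPM in TGF-beta libraries and 25.6, 20.1 and 16.7 RPM in control libraries.

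**Figure D4:**
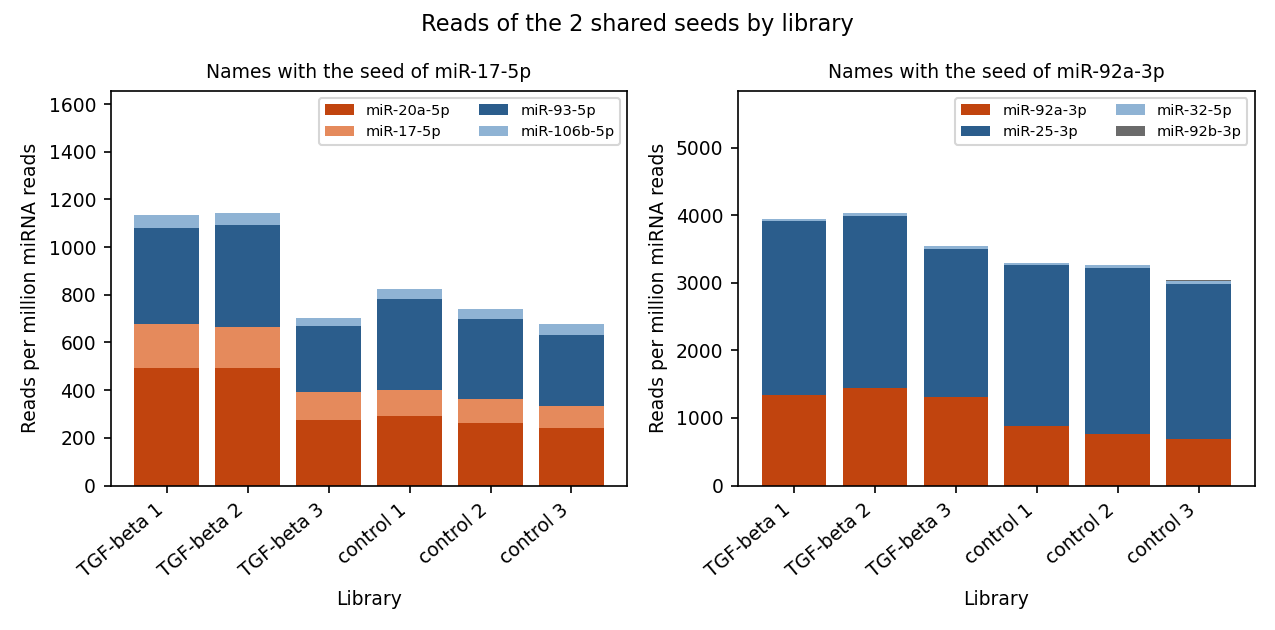
RPM of the names that share the seed of miR-17-5p (left panel) and of miR-92a-3p (right panel), stacked for each library, TGF-beta libraries left and control libraries right in each panel; red shades are cluster members. The red part makes up 55.8% to 59.7% of the TGF-beta bars against 48.8% to 49.03% of the control bars in the left panel, and 33.9% to 36.9% against 22.5% to 26.8% in the right panel.

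The 3 names outside these families whose log2(RPM + 1) followed the summed level of the members most closely over the 6 libraries were miR-155-5p (Pearson r = 0.955), miR-199a-5p (r = 0.946) and miR-181a-2-3p (r = 0.907), out of 232 candidates that averaged 10 RPM or more. All 3 were higher in every TGF-beta library than in any control library, against 9.09% of all tested names. They were picked for following a sum whose groups do not overlap, so nothing is read from this count. miR-155-5p, for example, had 393, 418 and 350 RPM in TGF-beta and 208, 219 and 217 RPM in control libraries. The 6 points share the contrast between groups, so r describes the ranking alone. Within the cluster, miR-17-5p and miR-20a-5p followed each other most closely (r = 0.986), and miR-17-3p and miR-92a-3p had r = −0.08. Summed levels of the members and their shares of a seed were not tested.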

How the data were processed

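The authors deposited a single table, with values headed TPM that sum to 1000000 in each library. They are RPM without length correction, since all values (100%) came out as whole reads, to within 0.01 read, from 1 step per library. Columns of group means (RPM) and of unadjusted p-values, both deposited by the authors, entered no test here. The deposited p-values matched an equal-variance t-test on RPM. That t-test's unadjusted p was 0.00120 for miR-92a-3p, 0.0633 for miR-17-5p and 0.102 for miR-20a-5p. For the other members it was 0.165 to 0.990. The labels' extraction text names a TruSeq RNA kit. Per the submitters' processing notes the build was mm9. No aligner, counting tool or annotation is stated in the labels or the file.

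Groups were taken from the treatment labels. The main test was limma 3.58.1 in R 4.3.3 on log2(RPM + 1), with 647 names left out by the filter on low values. Ratios were fitted in the same way, with the variance trend on the numerator's mean level. A denominator's own spread enters all of its ratios, so p-values are given with either member as denominator. edgeR 4.0.16 and DESeq2 1.42.0 on the recovered reads were alternatives. The limma steps were tested on simulated data.

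The members, lists and tests were chosen with earlier results of these data known. Named were the members, the other arms, the paralog clusters, 2 further carriers of the miR-92a seed and the 3 names most like the members. The names with a RefSeq sequence were 865 of 1065.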

Additional observations from a re-analysis of the deposited data

How the results depend on the processing

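The number of names called over the whole table was 33, 17 higher and 16 lower. It was 19 without a filter, 19 with a mean of at least 10 RPM, 10 with quantile normalization and 16 without a trend, and 18 to 36 with single libraries left out (18 without TGF-beta replicate 2, 21 without control replicate 1). The split was 18 higher and 10 lower with median scaling, 25 and 7 with miR-21a-5p left out, 19 and 10 with edgeR and 20 and 11 with DESeq2. Leaving out miR-21a-5p, the most abundant name, shifted the median over all tested names upwards by 0.16 (log2). The signs of the members' fold changes were the same in all alternatives except for miR-17-3p, which turned in 7 of 16. The calls of miR-17-5p and miR-20a-5p ended without a filter, with a mean of at least 10 RPM, with quantile normalization and without a trend (limma adjusted p from 0.0663 to 0.230), and the cause was not tested. The count of member pairs that passed was 3 to 9 with single libraries left out (9 without TGF-beta replicate 3) and 4 to 7 in the other alternatives. The labels do not say that replicate numbers pair libraries, and deviations of same-numbered libraries from their group means correlated at −0.08 to −0.07. With the replicate number as a block, 32 names and 6 member pairs were called, and the larger limma adjusted p of miR-19a-3p with miR-92a-3p was 0.815. Members under 10 RPM rest on 11 to 93 reads in a library, which limits what can be seen of miR-18a-5p, miR-19a-3p and miR-17-3p.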
